A study of Mus musculus with 14 samples.

Results

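The homeostatic identity genes of microglia were followed in sorted cortical cells of mice after stroke and after sham surgery. They are the 9 genes P2ry12, P2ry13, Tmem119, Cx3cr1, Sall1, Fcrls, Olfml3, Gpr34 and Siglech, taken by symbol from a count table of 14084 genes, and all 9 were present and passed the filter on low counts. Microglia are the resident macrophages of the brain. In the healthy adult brain they transcribe these genes far more than other macrophages do, under the control of factors such as Sall1 and of TGF-beta, and the set is known to be turned down in microglia that respond to injury or disease. Their products are of several kinds: receptors coupled to G proteins (P2ry12, P2ry13, Cx3cr1, Gpr34), other membrane proteins (Tmem119, Siglech, Fcrls), a secreted protein (Olfml3) and a transcription factor (Sall1).

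The stroke groups were cells of C57BL/6 mice taken 1, 3, 7, 21, 60 or 90 days after surgery that tied off the distal middle cerebral artery for good and closed both common carotid arteries for 7 min. The sham group had a lesion of the skull surface alone. Ages are labelled as 8 to 10 weeks in every group, without saying whether at surgery or at sampling. Each of the 7 groups had 2 libraries, 14 in all, from cerebral cortex sorted by flow cytometry. The sources used here do not give the sort markers, the day on which sham animals were sampled or any pooling of animals. Nor do they say whether the libraries of 1 group come from different animals, so the p-values reflect a spread between samples that may be technical.

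Replicate 1 libraries held 15254983 to 28758420 counts and replicate 2 libraries 100625099 to 191692779, so levels in replicate 2 rest on more counts. Levels are counts scaled to a common total (CPM) with TMM, a factor per library that removes differences in composition, and 3 counts corresponded to 0.015 to 0.197 CPM. The sham libraries stood apart in the markers they carried. The 14 measured neutrophil markers summed to between 378 and 7980 CPM in the stroke libraries (median 1130 CPM), against 22400 and 33400 CPM in sham (these sums are of CPM without TMM factors), and their most abundant genes in sham were S100a9, S100a8 and Mmp9. On the same scale Alas2, a heme synthesis gene of red cell precursors, had at most 4.37 CPM in the stroke libraries, against 196 and 204 CPM in sham. Csf1r, the receptor that microglia and other macrophages need for survival, ranged from 682 to 6498 TMM-scaled CPM in the stroke libraries, against 1687 and 1235 CPM in sham. Whether the libraries labelled sham hold microglia to the same extent as the stroke libraries is in doubt, given these neutrophil and red cell transcripts. Every result against sham rests on these same 2 libraries, "rose" here says only that a level was higher than in them, and in bulk RNA fewer cells of a type and less RNA per cell cannot be told apart.

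RefSeq promoter windows of 5 of the genes are given for the pair that did not pass the test against sham at any time (P2ry13 and Cx3cr1), for P2ry12, which lies beside P2ry13, and for the pair with the largest differences (Fcrls and Olfml3). The RefSeq table for GRCm38.p6 held windows for 7 of the 9 genes, each from 250 bases before to 50 bases after the start, written 5′ to 3′ on the strand of the gene. Capitals mark matches to motifs searched on both strands.
P2ry13 (chr3:59210833-59211132, minus strand): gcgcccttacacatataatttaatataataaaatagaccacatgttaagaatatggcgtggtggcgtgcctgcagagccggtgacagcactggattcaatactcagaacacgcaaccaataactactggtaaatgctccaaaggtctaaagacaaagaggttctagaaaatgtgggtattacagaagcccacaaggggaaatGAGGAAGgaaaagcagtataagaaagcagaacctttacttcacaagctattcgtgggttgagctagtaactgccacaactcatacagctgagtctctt
P2ry12 (chr3:59262936-59263235, minus strand): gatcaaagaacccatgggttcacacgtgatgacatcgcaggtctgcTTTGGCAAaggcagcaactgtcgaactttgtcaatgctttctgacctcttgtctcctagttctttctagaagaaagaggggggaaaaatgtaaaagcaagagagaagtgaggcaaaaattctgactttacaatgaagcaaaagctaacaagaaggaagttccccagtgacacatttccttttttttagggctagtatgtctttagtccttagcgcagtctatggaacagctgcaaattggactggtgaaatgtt
Cx3cr1 (chr9:120068247-120068546, minus strand): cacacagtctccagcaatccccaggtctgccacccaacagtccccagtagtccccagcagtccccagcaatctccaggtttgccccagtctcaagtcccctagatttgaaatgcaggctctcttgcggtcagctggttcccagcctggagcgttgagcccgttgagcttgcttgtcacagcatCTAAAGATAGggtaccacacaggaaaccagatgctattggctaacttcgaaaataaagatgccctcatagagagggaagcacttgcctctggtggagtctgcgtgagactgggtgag
Fcrls (chr3:87263475-87263774, minus strand): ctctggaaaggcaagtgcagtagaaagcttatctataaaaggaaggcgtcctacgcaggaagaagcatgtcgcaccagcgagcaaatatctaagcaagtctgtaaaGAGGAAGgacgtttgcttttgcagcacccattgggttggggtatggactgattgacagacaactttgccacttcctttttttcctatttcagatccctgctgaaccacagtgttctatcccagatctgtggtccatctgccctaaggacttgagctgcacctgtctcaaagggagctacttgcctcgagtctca
Olfml3 (chr3:103737952-103738251, minus strand): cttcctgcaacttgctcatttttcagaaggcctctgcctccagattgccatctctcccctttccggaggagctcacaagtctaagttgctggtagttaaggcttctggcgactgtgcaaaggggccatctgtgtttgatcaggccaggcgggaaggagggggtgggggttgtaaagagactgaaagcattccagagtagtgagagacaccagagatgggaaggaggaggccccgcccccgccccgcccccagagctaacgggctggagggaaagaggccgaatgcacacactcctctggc
The PU.1 motif GAGGAAG, bound by a lineage factor of macrophages, stood 48 bases before the start of P2ry13 and 144 bases before that of Fcrls, so 2 of the 7 genes with a window held it, and 13.6% of all 32851 windows did. A loose form of the MEF2 motif was searched, as CTA, 4 bases of any kind and TAG. A match to this pattern (CTAAAGATAG) lay 67 bases before the start of Cx3cr1, and 3.69% of windows held one. The pattern is wider than the MEF2 site, so the match is not shown to be such a site. The C/EBP motif TTGCNNAA matched in the windows of P2ry12 and Siglech and in 10.8% of all windows. None of the 7 genes held the IRF motif (a pair of GAAA runs 2 bases apart, 3.44% of windows), the SMAD motifs GTCTAGAC (0.213%) and CAGACAG (7.73%), the MAF motif TGCTGAC (4.67%) or the CRE motif TGACGTCA (1.79%). The printed window of P2ry12, unlike those of the other 4, did not run into the opening of an annotated GENCODE transcript of its gene. In the GENCODE annotation P2ry12 and P2ry13 lie next to each other on chromosome 3 with no coding gene wholly between them, inside Med12l on the opposite strand, and Gpr34 lies inside Cask on the opposite strand of chromosome X. Med12l exons cover 0.353% of the exon bases of P2ry12. Exons of the unnamed gene Gm33858 cover 1.73% of those of Cx3cr1. For the other 7 genes no exon base was shared, and no gene had more than 0.333% of its 50-base words in the transcripts of another gene.

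P2ry12 encodes the ADP receptor that steers microglial processes toward injured cells and that platelets also use. In replicates 1 and 2 it had 91.0 and 22.9 CPM in the day 1 libraries, 119.5 and 251 in those of day 3, 90.9 and 146 in those of day 7, 142 and 358 in those of day 21, 179 and 102 in those of day 60 and 198 and 122 in those of day 90, against 47.5 and 17.6 CPM in sham. Of the 12 stroke libraries, 11 lay above both sham libraries, and day 1 replicate 2 lay between them. The log2 fold change against sham was largest at day 21 (2.94 ± 0.78 SE, edgeR adjusted p = 0.047), where the gene rose. At the other times it ranged from 0.81 ± 0.73 at day 1 (edgeR adjusted p = 0.559) to 2.51 ± 0.77 at day 3 (adjusted p = 0.065). The day 21 call was kept in 11 of 22 alternatives, with adjusted p from 0.00168 to 0.253.

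P2ry13 is the neighbouring gene and encodes another ADP receptor. Its level was 72.3 and 28.7 CPM in the day 1 libraries, 67.5 and 87.1 in those of day 3, 66.3 and 74.0 in those of day 7, 108 and 181 in those of day 21, 68.7 and 29.4 in those of day 60 and 90.6 and 43.9 in those of day 90, against 130.1 and 67.9 CPM in sham. Stroke and sham libraries overlapped: 1 of 12 stroke libraries lay above both sham libraries and 5 lay below both. No time passed the test, with log2 fold changes between -1.01 ± 0.60 at day 60 (edgeR adjusted p = 0.295) and 0.55 ± 0.59 at day 21 (adjusted p = 0.597). Within a library the count of P2ry12 can be set against that of P2ry13 without any scaling. There were between 0.798 and 3.47 P2ry12 counts per P2ry13 count in the 12 stroke libraries, against 0.365 and 0.259 in sham. The groups did not overlap, and the mean log2 ratio was 2.61 higher after stroke. This ratio was chosen after the values were known, so it is a description with no test. The part of other cells in the sham libraries in this ratio was not tested.

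**Figure D1:**
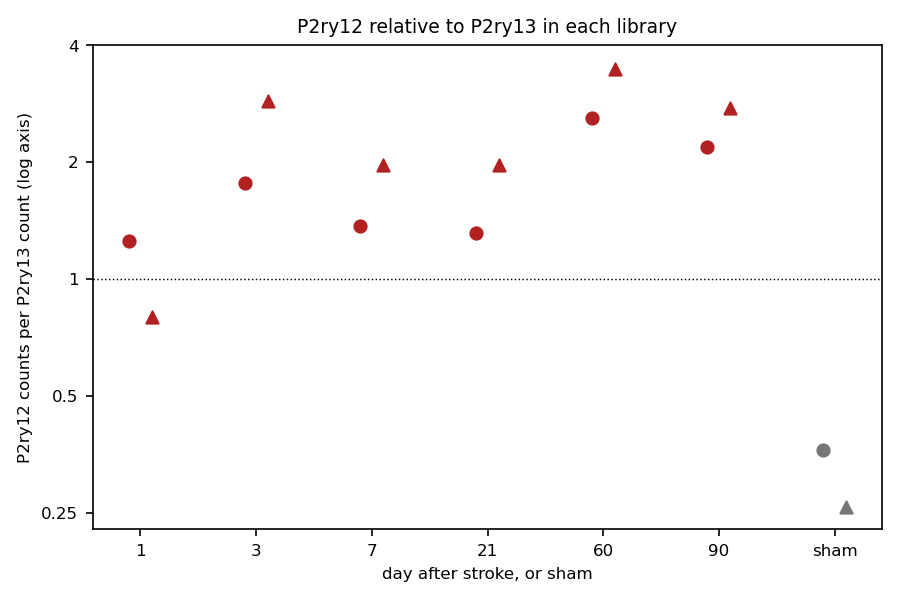
P2ry12 counts per P2ry13 count (y axis, log scale) in each library by day after stroke and in sham (x axis); circles are replicate 1 and triangles replicate 2. The 12 stroke libraries lie between 0.798 and 3.47 and both sham libraries lie below all of them.

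Cx3cr1 is the receptor for fractalkine, a signal from neurons, and is also transcribed in patrolling monocytes. It had 261 and 53.8 CPM in the day 1 libraries, 193 and 333 in those of day 3, 686 and 359.7 in those of day 7, 597 and 742 in those of day 21, 235 and 103 in those of day 60 and 626 and 260.3 in those of day 90, against 392 and 149 CPM in sham. Sham lay in the middle of the range, with 4 stroke libraries above both sham libraries and 2 below. The log2 fold change was between -0.78 ± 0.77 at day 1 (edgeR adjusted p = 0.594) and 1.31 ± 0.78 at day 21 (adjusted p = 0.317), so no time passed the test. The 8 patrolling monocyte markers summed to 466 to 2110 CPM in stroke libraries, against 2230 and 3490 CPM in sham. Over all stroke times 7 of these markers were called lower, beside 11.3% of all genes. The part of patrolling monocytes in the Cx3cr1 values was not tested.

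Gpr34 encodes a receptor for lysophosphatidylserine, a lipid of damaged membranes. Replicates 1 and 2 had 53.0 and 11.8 CPM in the day 1 libraries, 71.2 and 191 in those of day 3, 63.6 and 113 in those of day 7, 104 and 285 in those of day 21, 115 and 84.8 in those of day 60 and 144 and 92.8 in those of day 90, against 13.8 and 3.20 CPM in sham. All stroke libraries except day 1 replicate 2 lay above both sham libraries. The gene rose at the 5 times from day 3, with log2 fold changes of 3.39 ± 0.91 at day 7 (edgeR adjusted p = 0.0316) to 4.53 ± 0.95 at day 21 (adjusted p = 0.0196), and at day 1 the value was 1.94 ± 0.86 (adjusted p = 0.213). The day 60 call was kept in 14 of 22 alternatives.

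Tmem119 encodes a membrane protein widely used to tell microglia from blood-derived macrophages. It had 318 and 41.6 CPM in the day 1 libraries, 289 and 271 in those of day 3, 346 and 213 in those of day 7, 201 and 350.1 in those of day 21, 187 and 99.0 in those of day 60 and 204 and 92.6 in those of day 90, against 16.9 and 2.48 CPM in sham. Every stroke library was above both sham libraries. Tmem119 rose at all 6 times, by 3.89 ± 1.03 log2 units at day 60 (edgeR adjusted p = 0.0401) to 4.86 ± 1.08 at day 3 (adjusted p = 0.0196). Of 22 alternatives, 10 kept the day 1 call, 11 the day 60 call and 12 the day 90 call. The highest of its 6 stroke means was 1.96 times the lowest.

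Siglech encodes a sialic acid-binding lectin of microglia and plasmacytoid dendritic cells. Its level was 13.96 and 11.6 CPM in the day 1 libraries, 25.7 and 132 in those of day 3, 18.7 and 55.1 in those of day 7, 62.0 and 249 in those of day 21, 66.2 and 76.9 in those of day 60 and 71.7 and 68.4 in those of day 90, against 3.58 and 0.202 CPM in sham. The sham values rest on 59 and 17 counts. No stroke library reached down to sham. Siglech rose at the 5 times from day 3, by 4.35 ± 1.25 log2 units at day 7 (edgeR adjusted p = 0.0444) to 6.42 ± 1.38 at day 21 (adjusted p = 0.0235), and had 2.82 ± 1.18 at day 1 (adjusted p = 0.192). The day 7 call was kept in 11 of 22 alternatives. Of the 11 measured plasmacytoid dendritic cell markers 2 were called higher and 2 lower over all stroke times, beside 8.56% and 11.3% of all genes. The 11 markers summed to 872 to 1620 CPM after stroke, against 928 and 916 CPM in sham. Within these sums Pld4 alone had 562 to 1310 CPM after stroke, against 787 and 756 CPM in sham. Between 0 and 2 of the 11 markers had no count in a library, and their part in the Siglech values was not tested.

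Fcrls encodes a scavenger receptor related to Fc receptors. It had 1174 and 206 CPM in the day 1 libraries, 925 and 1753 in those of day 3, 1116 and 1657 in those of day 7, 425 and 1909 in those of day 21, 229 and 258 in those of day 60 and 308 and 291 in those of day 90, against 10.4 and 4.03 CPM in sham. The groups did not overlap, and the mean of the stroke libraries was 119 times that of sham. Fcrls rose at all 6 times, by 5.09 ± 0.98 log2 units at day 60 (edgeR adjusted p = 0.0121) to 7.60 ± 1.10 at day 7 (adjusted p = 0.00286).

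Olfml3, the secreted member, encodes an olfactomedin-like matrix protein. Its values were 422 and 56.6 CPM in the day 1 libraries, 363 and 644 in those of day 3, 353 and 392 in those of day 7, 219 and 751 in those of day 21, 207 and 172 in those of day 60 and 196 and 159.9 in those of day 90, against 6.06 and 1.21 CPM in sham. Here too all 12 stroke libraries lay above sham. It rose at all 6 times, by 5.63 ± 1.08 log2 units at day 90 (edgeR adjusted p = 0.0117) to 7.13 ± 1.16 at day 3 (adjusted p = 0.00538).

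Sall1, the zinc finger factor that holds microglia in their resting identity in mice, was the least abundant member. It had 1.08 and 1.99 CPM in the day 1 libraries, 3.42 and 19.3 in those of day 3, 3.15 and 4.57 in those of day 7, 14.5 and 46.7 in those of day 21, 4.17 and 2.34 in those of day 60 and 5.01 and 3.25 in those of day 90, against 0.424 and 0.214 CPM in sham, which rest on 7 and 18 counts. All stroke libraries lay above sham, and day 21 had the highest mean. Sall1 rose from day 3 on, by 3.42 ± 0.92 log2 units at day 60 (edgeR adjusted p = 0.043) to 6.66 ± 1.05 at day 21 (adjusted p = 0.00532), with 2.36 ± 0.90 at day 1 (adjusted p = 0.152). The day 60 call was kept in 12 of 22 alternatives.

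**Figure D2:**
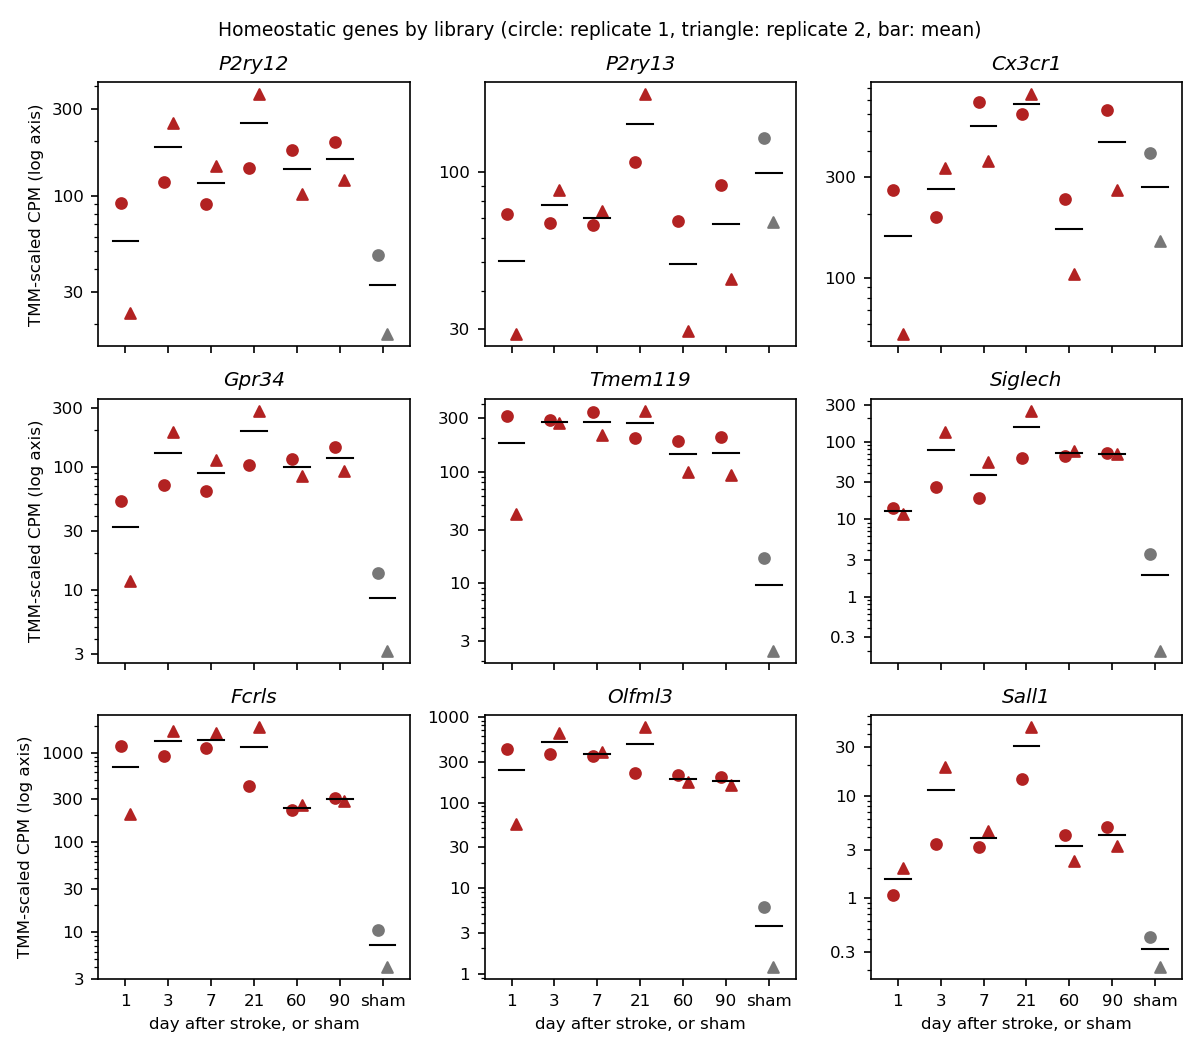
TMM-scaled CPM (y axis, log scale, a separate range for each gene) of the 9 genes by day after stroke and in sham (x axis); circles are replicate 1, triangles replicate 2 and black bars the group mean. In Tmem119, Sall1, Fcrls, Olfml3 and Siglech all 12 stroke libraries lie above both sham libraries, in P2ry12 and Gpr34 11 do, and in P2ry13 and Cx3cr1 the groups overlap.

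Per kilobase of exon (GENCODE lengths), the order of the genes differed between stroke and sham. Fcrls led after stroke with a median of 289 CPM per kilobase, against 1.73 to 4.44 in sham. Tmem119 had 90.0 and Cx3cr1 65.9 CPM per kilobase as stroke medians, against 1.07 to 7.31 and 33.1 to 87.1 in sham. In sham Cx3cr1 and P2ry13 ranked highest, P2ry13 with 26.9 to 51.5 CPM per kilobase there and a stroke median of 27.9. Sall1 was lowest in stroke and in sham, with a stroke median of 0.721 and 0.0406 to 0.0806 CPM per kilobase in sham.

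At day 1, 3 of the 9 genes rose (Fcrls, Olfml3 and Tmem119) and none fell; of the 13861 genes tested 3.18% were called higher and 1.37% lower. The median log2 fold change of the 9 was 2.36, beside 0.04 over all genes. Without sham replicate 1 the count was 1, and without sham replicate 2 it was 0. At day 3, 6 rose and 0 fell, beside 5.2% of all genes higher and 3.07% lower, with medians of 4.86 and 0.15; P2ry12, P2ry13 and Cx3cr1 were not called. The day 3 count was 2 without sham replicate 2 and 2 without day 3 replicate 2.

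At day 7 the same 6 genes passed (Fcrls, Olfml3, Tmem119, Gpr34, Siglech and Sall1), beside 7% of all genes called higher and 5.63% lower, with medians of 3.68 for the 9 and 0.06 for all genes. Leaving out a library gave 2 without sham replicate 2, 2 without day 7 replicate 1 and 3 without day 7 replicate 2. At day 21 P2ry12 was added to these 6, making 7, beside 5% of all genes higher and 1.44% lower, and the medians were 4.84 and 0.06. The day 21 count was 0 without sham replicate 2, 3 without day 21 replicate 2 and 0 when sham and day 21 alone were fitted, where 0 of all 12806 genes tested were called.

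At days 60 and 90 the 6 genes of day 7 again rose, beside 4.96% of all genes higher and 2.89% lower at day 60, and 5.12% higher and 2.73% lower at day 90. Medians of the 9 were 3.56 at day 60 and 3.81 at day 90, and those of all genes 0.14 and 0.11. The day 60 count was 2 without sham replicate 1, 0 without sham replicate 2, 3 without day 7 replicate 2 and 2 without either library of day 60 or of day 90. The day 90 count was 2 without sham replicate 1, 0 without sham replicate 2 and 2 without either day 90 library. With 1 sham library left out, whichever it was, the calls over all genes also fell at all 6 times, so such drops were not particular to the 9 genes. In all, 34 of the 54 pairs of a gene and a time were called higher and 0 lower, and the 6 comparisons share the sham libraries. Because depth goes with the replicate number, folds were also taken within each number: 7 of the 9 genes were above sham in both numbers at days 1, 3 and 60, and 8 at days 7, 21 and 90. Of all genes 28, 34.5, 42.9, 35.9, 44.5 and 44.7% were above sham in both numbers at the 6 times in order. The median of the 9 log2 folds was 1.94 to 3.57 in replicate 1 and 3.08 to 7.13 in replicate 2 over the 6 times.

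**Figure D3:**
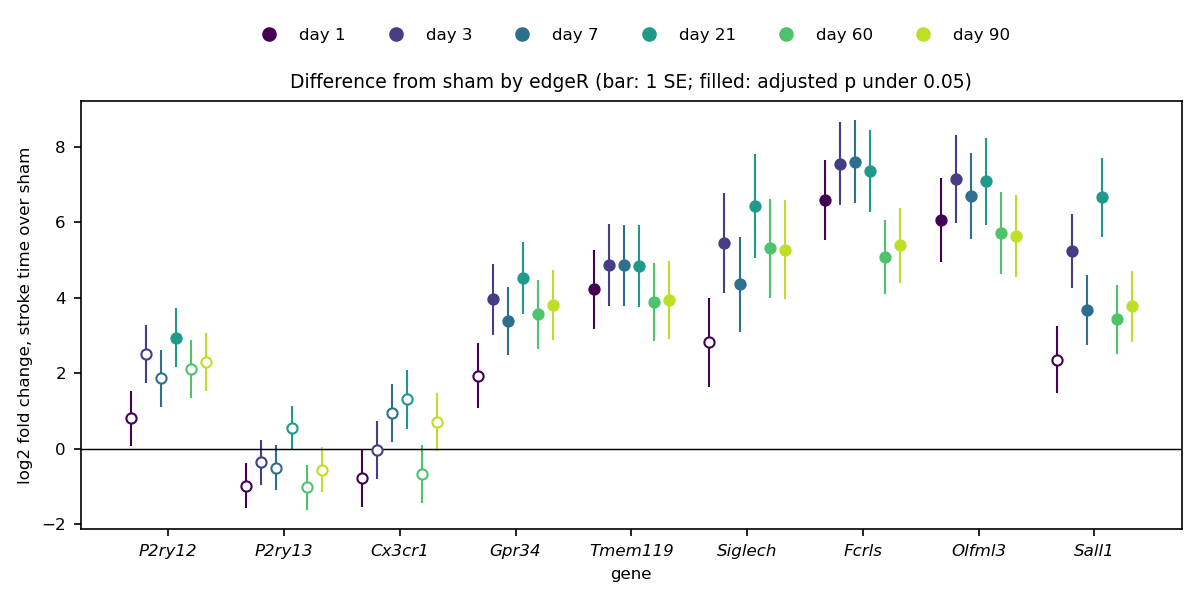
Log2 fold change of each stroke time over sham (y axis) for the 9 genes (x axis), colored by day, with bars of 1 standard error and filled points where the edgeR adjusted p was under 0.05. P2ry13 (-1.01 to 0.55) and Cx3cr1 (-0.78 to 1.31) have open points on either side of 0, P2ry12 is filled at day 21 alone, and Fcrls, Olfml3 and Tmem119 are filled at all 6 times.

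Over all stroke times together 7 of 9 genes rose against sham and none fell, beside 8.56% of all genes called higher and 11.3% lower. Fcrls (6.59 ± 1.00 log2 units, edgeR adjusted p = 0.00141) and Olfml3 (6.39 ± 1.07, adjusted p = 0.00218) led, and both were called in all 22 alternatives. Siglech (4.94 ± 1.21, edgeR adjusted p = 0.0161), Tmem119 (4.44 ± 0.98, adjusted p = 0.00907), Sall1 (4.19 ± 0.88, adjusted p = 0.00689) and Gpr34 (3.53 ± 0.83, adjusted p = 0.0123) followed. P2ry12 passed narrowly (2.09 ± 0.66, edgeR adjusted p = 0.0438) and was called in 12 of 22 alternatives. Cx3cr1 (0.24 ± 0.60, edgeR adjusted p = 0.825) and P2ry13 (-0.47 ± 0.43, adjusted p = 0.484) were called in 0. Without sham replicate 2 the count was 2.

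Set against Csf1r in the same library, 5 genes (Tmem119, Sall1, Fcrls, Olfml3 and Siglech) had all 12 stroke libraries above both sham libraries, as did 4.25% of all genes by this measure; in TMM-scaled CPM the same 5 and 10.3% of all genes did. Fcrls had 100.1 to 1570 counts per 1000 Csf1r counts in stroke libraries, against 3.26 to 6.15 in sham. Tmem119 had 28.6 to 425 per 1000 Csf1r counts after stroke, against 2.01 to 10.0 in sham. P2ry13 differed by this measure: 10 of 12 stroke libraries lay below both sham libraries, with a stroke median of 42.9 per 1000 Csf1r counts, against 55.0 to 77.1 in sham. For Cx3cr1 5 stroke libraries lay above and 5 below. Csf1r itself was not called over all stroke times (0.52 ± 0.61, edgeR adjusted p = 0.599).

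The 3 libraries with the lowest sums of the 9 genes (day 1 replicate 2 and both sham libraries) had the 3 highest sums of classical monocyte markers. This did not hold further on. The next lowest sum of the 9 genes, in day 60 replicate 2 (928 CPM), went with a monocyte sum of 1830 CPM. At day 3 replicate 2 had the higher sum of the 9 genes, at 3680 beside 2059 CPM in replicate 1. Its monocyte sum was also higher, at 4980 beside 3060 CPM. At day 1 replicate 2 had lower levels than replicate 1 for 8 of the 9 genes (median ratio 0.222), and summed to 435 CPM beside 2406 CPM in replicate 1. The neutrophil sum in these libraries was 7500 and 1290 CPM and the classical monocyte sum 10650 and 1895 CPM, in the same order of libraries. At day 21 replicate 2 was higher for all 9 genes (median ratio 2.73), at 4872 beside 1874 CPM in sum, with neutrophil sums of 935 and 7980 CPM. In sham replicate 2 was lower for all 9 genes (median ratio 0.371), with neutrophil sums of 33400 and 22400 CPM. At day 90, where replicate 2 was also lower for all 9 genes (median ratio 0.644), the neutrophil sums lay close together at 4180 and 4610 CPM. The part of blood cells in the levels of the 9 genes was not tested.

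**Figure D4:**
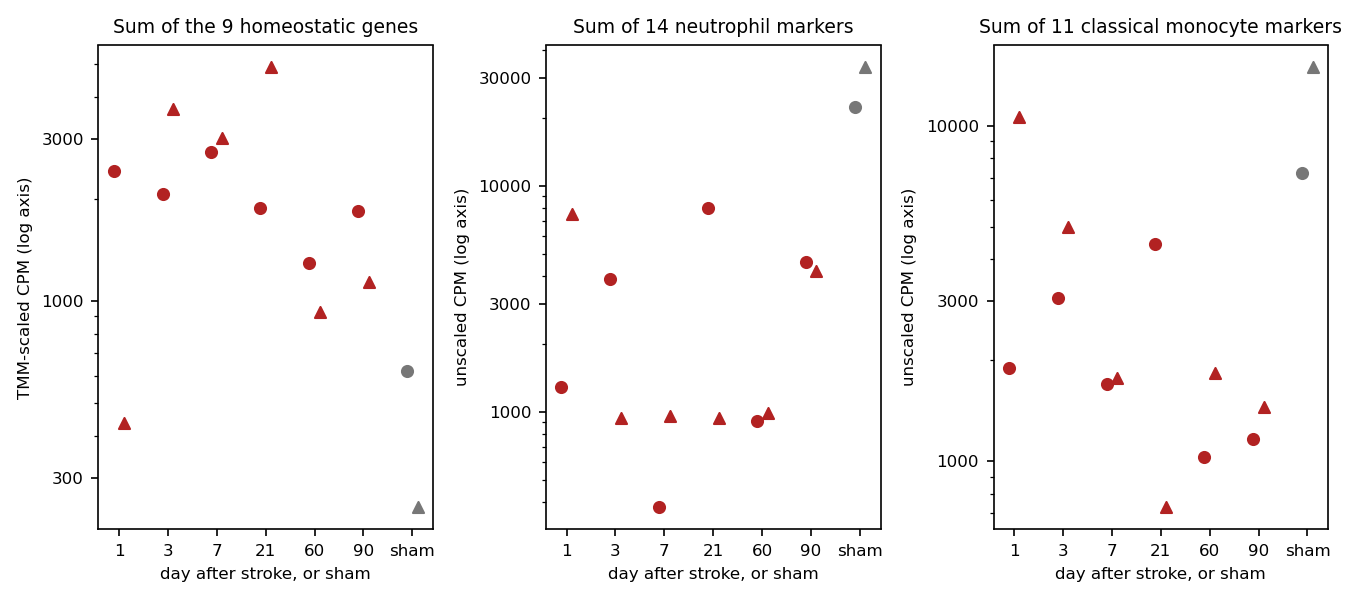
Summed level per library (y axes, log scale) of the 9 homeostatic genes in TMM-scaled CPM and of neutrophil and classical monocyte markers in unscaled CPM, by day after stroke and in sham (x axes); circles are replicate 1 and triangles replicate 2. Sham has the highest neutrophil sums (22400 and 33400 CPM), and day 1 replicate 2 has a low sum of the 9 genes (435 CPM) and a high monocyte sum (10650 CPM).

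Other marker lists give the setting of these values, as summed CPM without TMM factors; calls are over all stroke times, where 8.56% of all genes were higher and 11.3% lower. Classical monocyte markers summed to 731 to 10700 CPM in stroke libraries, against 7230 to 14900 CPM in sham, with 5 of 11 called lower. Border-associated macrophage markers summed to 528 to 2660 CPM after stroke, against 823 to 1480 CPM in sham, and 6 of 11 rose while 1 fell, led by Ms4a7 and Stab1. Platelets also transcribe P2ry12, and platelet markers summed to 9.44 to 1080 CPM after stroke, against 102 to 136 CPM in sham, with 11 of 12 lower; the highest stroke sum rests mainly on Pf4 (up to 974 CPM), which is also in the border-associated macrophage list. Conventional dendritic cell markers had 38.4 to 2050 CPM after stroke, against 187 to 208 CPM in sham, and 0 of 8 were called. Their highest sum was that of day 21 replicate 1 alone, and the next highest was 566.5 CPM, in day 90 replicate 1. B cell markers (14.6 to 497 CPM after stroke, 178 to 196 CPM in sham) had 5 of 9 lower. T and NK cell markers (7.78 to 207 CPM after stroke, 63.6 to 81.6 CPM in sham) had 1 higher and 2 lower of 14. The 4 measured erythroid markers had at most 4.43 CPM after stroke, against 200.5 and 207 CPM in sham, with 3 lower. Endothelial markers (239.8 to 4437 CPM after stroke, 118 to 324 CPM in sham) had 2 of 10 higher and 1 lower. The highest of these sums rests mainly on Pltp, which had 159 to 4230 CPM after stroke, against 62.5 and 122 CPM in sham. Oligodendrocyte markers (112 to 370.1 CPM after stroke, 263.5 to 664 CPM in sham) had 1 of 8 lower, and astrocyte markers (12.1 to 84.9 CPM after stroke, 4.06 to 17.4 CPM in sham) had 2 of 8 higher. Neuronal markers did not exceed 8.39 CPM after stroke and 0.884 CPM in sham, and 0 of 7 were called.

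Within the course after stroke, which does not use the sham level, none of the 9 genes passed in edgeR. Late times (days 60 and 90) against early times (days 1 and 3) gave 0 of 9 genes with edgeR, where 2.62% of all genes were called (1.77% higher and 0.844% lower). Of the 9, 1 had an unadjusted p under 0.05 (16.3% of all genes did), DESeq2 called 1 (and 1158 of all genes) and limma-voom 0 (and 756). That gene was Fcrls, with 229 and 258 CPM at day 60 and 308 and 291 CPM at day 90, against 1174 and 206 CPM at day 1 and 925 and 1753 CPM at day 3. Its log2 difference was -1.83 ± 0.60 (edgeR adjusted p = 0.142), and DESeq2 gave -1.84 ± 0.57 (adjusted p = 0.021). The other 8 genes had log2 differences from -0.92 ± 0.63 (Olfml3, edgeR adjusted p = 0.527) to 1.16 ± 0.77 (Siglech, adjusted p = 0.516). The joint test among the 6 stroke times called 0 of 9 with edgeR, beside 0.866% of all genes. Of the 9, 2 had an unadjusted p under 0.05 (12% of all genes did), DESeq2 called 1 (and 1276 of all genes) and limma-voom 0 (and 244). The 2 were Sall1 (edgeR adjusted p = 0.102, DESeq2 adjusted p = 2.37e-05) and Fcrls (edgeR adjusted p = 0.412). Without day 21 replicate 1, Sall1 passed by edgeR (adjusted p = 0.0351). With the sham libraries left out of the fit, both counts were again 0.

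Of the 9 genes, 6 had their highest stroke mean at day 21 and 5 their lowest at day 1. How often genes at large peak or dip at these times was not counted. Among the replicate 2 stroke libraries all 9 genes, not these 6 alone, were highest at day 21. The 2 libraries of that day correlated least of all groups (r = 0.824 in log2 CPM). Among the replicate 1 stroke libraries only P2ry13 and Sall1 were highest at day 21. There P2ry12 (198 CPM, beside 142 at day 21), Gpr34 (144 beside 104) and Siglech (71.7 beside 62.0) were highest at day 90. Cx3cr1 was highest at day 7 in replicate 1 (686 CPM, beside 597 at day 21). The highest mean was 19.9 times the lowest for Sall1, 12.2 times for Siglech and 6.01 times for Gpr34, while Tmem119 and Olfml3 (2.83 times) had the narrowest ranges. By mean, Tmem119 and Olfml3 were highest at day 3, and Fcrls was highest at day 7. Between neighbouring times none of the 9 genes was called by edgeR at any of the 5 steps, where 0, 0.00721, 0, 0.0216 and 0% of all genes were called in the order of time. An unadjusted p under 0.05 was found for 4 of the 9 from day 1 to day 3, 0 from day 3 to day 7, 1 from day 7 to day 21, 4 from day 21 to day 60 and 0 from day 60 to day 90, where the shares of all genes under that threshold were 2.51, 4.14, 9.67, 13 and 3.19%. DESeq2 called 1, Sall1, at day 21 against day 7 (387 of all genes called) and at day 60 against day 21 (362 of all genes), and limma-voom called 0 at every step.

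The profiles of the 9 genes over the 14 libraries were compared by the root mean square (RMS) difference of their centred log2 CPM values, in log2 units and as a description. Fcrls and Olfml3 were the closest pair, at 0.536, followed by P2ry12 and Gpr34 at 0.602 and P2ry13 and Cx3cr1 at 0.631. The neighbouring receptor genes P2ry12 and P2ry13 differed by 1.07, and the widest difference was that of P2ry13 and Fcrls, at 2.62. Among all genes whose mean log2 CPM was 3 or more, those near the mean profile of the 9 included Pxdc1 (0.486), Soga1 (0.509), Slc46a1 (0.542), Gem (0.568), F11r (0.585), Spire1 (0.657) and Il21r (0.658). F11r, which encodes a junctional adhesion molecule, had 72.2 to 352 CPM in stroke libraries, against 13.1 and 12.8 CPM in sham. For single genes the nearest were Tgfbr1 for Cx3cr1 (0.443) and 1190002N15Rik next (0.463), Elmod2 (0.375) and Otud1 (0.418) for P2ry13, Ldlrad4 (0.476) and Mmp2 (0.481) for P2ry12, and Pmepa1 (0.502) and Npl (0.59) for Fcrls. Gpr157 and the potassium channel gene Kcnk13 were nearest to both Tmem119 (0.545 and 0.692) and Olfml3 (0.751 and 0.734). Gpr34 was nearest to Soga1 (0.56) and Slc2a5 (0.691), Sall1 to Sparc (0.689) and Tspan7 (0.704), and Siglech to Slco2b1 (0.689) and Tanc2 (0.81).

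**Figure D5:**
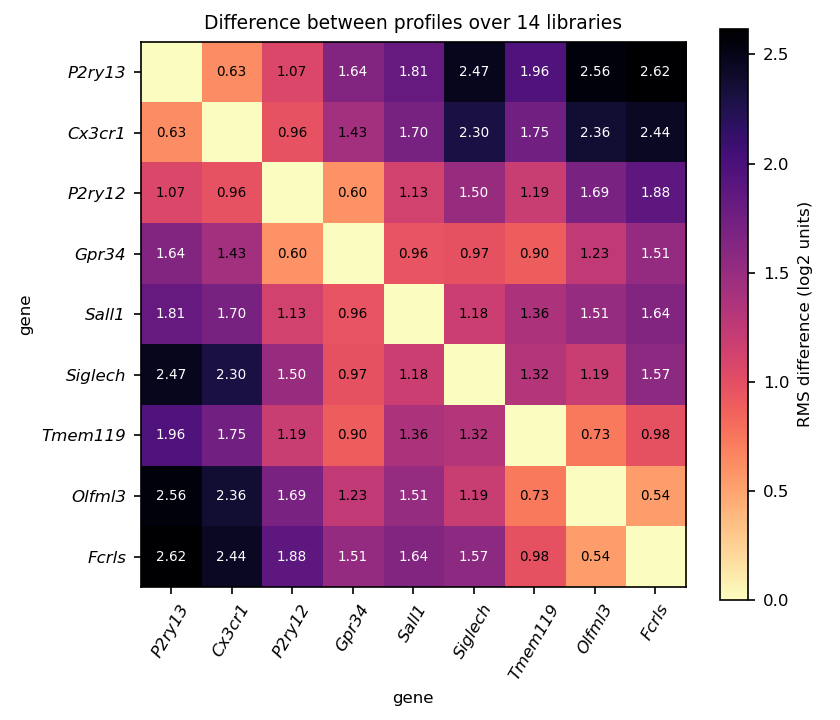
RMS difference in log2 units between the centred log2 CPM profiles of each pair of the 9 genes (both axes) over 14 libraries; darker cells are wider differences. P2ry13 and Cx3cr1 lie close to each other (0.63) and far from Fcrls and Olfml3 (2.36 to 2.62).

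Of 31 measured genes in a list of other microglia signature genes, 17 rose over all stroke times and 1 fell, with a median log2 fold change of 2.81, beside 8.56% of all genes higher and 11.3% lower. Mertk, a receptor for the engulfment of apoptotic cells, ranged from 26.7 to 354 CPM in stroke libraries, against 1.82 and 0.903 CPM in sham (6.44 ± 0.82, edgeR adjusted p = 0.000553). Nav3 (5.74 ± 1.42, edgeR adjusted p = 0.0154), the anion transporter gene Slco2b1 (5.55 ± 1.33, adjusted p = 0.0149) and the actin-bundling gene Fscn1 (5.50 ± 0.78, adjusted p = 0.00101) also rose. Selplg, the ligand of selectins on myeloid cells, fell (-1.80 ± 0.36, edgeR adjusted p = 0.0055), to between 331 and 1508 CPM after stroke, against 2561 and 1489 CPM in sham. By time, day 1 had 5 of the 31 higher and 0 lower, day 3 had 14 and 0, day 7 had 15 and 2, day 21 had 15 and 0, day 60 had 7 and 0, and day 90 had 8 and 1. Over the same times 3.18% to 7% of all genes were higher and 1.37% to 5.63% lower.

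TGF-beta pathway genes, 23 in all, gave 2 higher and 3 lower over all stroke times (median 0.28), shares near the 8.56% higher and 11.3% lower of all genes. Lrrc32, which anchors latent TGF-beta, rose (3.99 ± 1.05, edgeR adjusted p = 0.0201), as did the coreceptor gene Eng (2.28 ± 0.71, adjusted p = 0.0423). The coreceptor gene Tgfbr3 (-2.85 ± 0.70, edgeR adjusted p = 0.0151) and the signal transducer gene Smad4 (-1.13 ± 0.31, adjusted p = 0.0223) fell. Tgfbr1, the signalling receptor needed for microglial identity in mice, had 0.58 ± 0.60 (edgeR adjusted p = 0.542). Of 20 other transcription factors of microglia 4 rose and 3 fell (median 0.66), beside the same 8.56% and 11.3% of all genes. Bhlhe41 (4.97 ± 0.91, edgeR adjusted p = 0.00373) and Etv5 (2.91 ± 0.58, adjusted p = 0.00557) were among those higher and Cebpb (-1.56 ± 0.37, adjusted p = 0.0124) lower. Spi1, the gene of PU.1, fell (-1.28 ± 0.31, edgeR adjusted p = 0.0142).

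Of 17 measured genes of purinergic receptors and nucleotide-handling proteins 5 rose and 1 fell (median 0.89), beside 8.56% of all genes higher and 11.3% lower. Kcnk13, the channel that sets the resting potential of mouse microglia, had 22.7 to 112 CPM in stroke libraries, against 1.09 and 0.523 CPM in sham (6.13 ± 0.87, edgeR adjusted p = 0.00101). The ectonucleotidase gene Enpp1 (5.10 ± 0.71, edgeR adjusted p = 0.000873) and the ATP-gated channel gene P2rx4 (2.60 ± 0.45, adjusted p = 0.00253) rose. P2rx1, another ATP-gated channel gene, fell (-2.41 ± 0.37, edgeR adjusted p = 0.00147), to 1.84 to 8.02 CPM after stroke, against 15.8 and 22.6 CPM in sham.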

How the data were processed

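The authors deposited raw counts for each gene, both as a table of the series and per library, and all 197176 values were equal in these sources. Per the submitters' processing notes the tools included Bowtie2 2.3.4.2 and HTSeq 0.6.1 with the mm9 build. Neither annotation nor strand setting is stated there, so overlapping genes on opposite strands cannot be told apart. Annotation and promoters come from another build, GRCm38. Sample titles gave the group and the replicate number.

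The main test was edgeR 4.0.16 under R 4.3.3, with DESeq2 1.42.0 and limma 3.58.1 as alternatives. The filter by group kept 13861 genes and removed 223. All 14 libraries entered a quasi-likelihood fit of the group means after TMM scaling (7 residual degrees of freedom, common BCV 0.639). The call threshold was 0.05 for p adjusted over all tested genes by Benjamini-Hochberg. A standard error is the log2 fold change divided by the square root of F. Depth per library is given with the results, and floors of 3 counts cover counting error only. No pair of libraries agreed within sampling noise (chi-square per degree of freedom at least 408). The fit was tested on simulated data drawn with its own estimated spread and with equal changes at all stroke times. That setting holds no outlying libraries and no mixed sham group, so it does not show how the fit behaves with them.

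The 9 genes, the other 4 gene lists and the 14 marker lists were chosen with earlier results of these data known. Named genes are the 9, those nearest to them in profile, up to 4 called genes per list with the largest changes over all stroke times and between late and early times, and the leading markers; some genes that this rule takes are not reported here. Csf1r, Selplg and Spi1 and the values of F11r were singled out after they were seen. Alternatives were DESeq2, limma-voom, other scalings, no filter, a replicate block and leaving out libraries.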

Additional observations from a re-analysis of the deposited data

How the results depend on the processing

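No log2 fold change of the 9 genes that was called changed sign under any alternative; of 1800 recomputed values for single genes, 1630 stayed on their side of the threshold, 156 lost a call and 14 gained one. Scaling by total counts gave 2 genes at day 60 in place of 6. DESeq2 called 1 late against early and 1 among the stroke times, in place of 0 each. With sham and day 21 alone in the fit 0 of 9 and 0 of all 12806 genes were called at day 21; the construction leaves fewer samples to estimate the spread. Leaving out single libraries gave 0 to 3 genes at day 1, 2 to 7 at day 3, 2 to 6 at day 7, 0 to 7 at day 21, 0 to 6 at day 60, 0 to 6 at day 90, 2 to 7 over all stroke times, 0 late against early and 0 to 1 among the stroke times; a group left with 1 library was assumed to vary like the others. Causes were not tested.

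Libraries with the same replicate number deviated from their group means with correlations of 0.071 to 0.677 over 21 pairs of groups; all 21 were above 0 and 20 above 0.1. No label pairs the libraries and not every correlation passed 0.1, so the main fit has no block, but the replicate number may mark a shared source or depth. With the replicate block, counts of the 9 genes were 3, 6, 6, 7, 6 and 6 at days 1, 3, 7, 21, 60 and 90, as without it, and 7 over all stroke times.

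Counts over all genes also moved. In the order of days 1, 3, 7, 21, 60 and 90 they were 631, 1147, 1751, 892, 1088 and 1089, with DESeq2 1878, 2667, 3158, 2447, 2653 and 2616 and with the replicate block 1195, 2002, 2766, 1584, 1953 and 2006. Late against early gave 363, with DESeq2 1158, limma-voom 756 and the block 611; the joint test gave 120, with DESeq2 1276, limma-voom 244, the block 184 and no sham libraries 70. Limma-voom gave 1830 at day 21 and total counts 692 at day 60. Without the day 21 libraries days 1, 3, 60 and 90 gave 1093, 1802, 1749 and 1796, late against early 676 and the joint test 273. Without single libraries the counts at the 6 times spanned 76 to 1098, 225 to 1815, 355 to 2457, 68 to 2410, 132 to 1750 and 129 to 1800. The median of all genes shifted by up to 0.347 log2 units (total counts, day 21), and total counts raised the share of higher calls to 78.2% at day 3, 92.7% at day 21 and 81.2% at day 90, against 62.9%, 77.7% and 65.2% with TMM. In sham, 7 to 59 counts of Sall1 and Siglech limit their fold changes.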

Other observations

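Between late and early times, without use of sham, 2 of the 17 purinergic genes were called (1 higher, 1 lower, beside 1.77% and 0.844% of all genes). P2ry14, the receptor for UDP-glucose, had 43.2 and 52.6 CPM at day 60 and 30.0 and 34.8 CPM at day 90, against 6.01 and 2.27 CPM at day 1 and 4.54 and 4.95 CPM at day 3, and was higher late (3.16 ± 0.38 log2 units, edgeR adjusted p = 0.00163). Nt5e, the CD73 ectonucleotidase that forms adenosine, had 2.14 and 1.09 CPM at day 60 and 4.16 and 2.80 CPM at day 90, against 9.30 and 85.8 CPM at day 1 and 19.2 and 8.77 CPM at day 3 (-3.45 ± 0.77, edgeR adjusted p = 0.0363). Tgfbi, a TGF-beta-induced matrix gene, was the 1 TGF-beta list gene called, lower late (-2.57 ± 0.57, edgeR adjusted p = 0.0363), with 448 and 652 CPM at day 60 and 392 and 618 CPM at day 90, against 2152 and 5403 CPM at day 1 and 2305 and 2857 CPM at day 3.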
